A study of Mus musculus with 3 samples.

Results

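The Pax and Gata transcription factors were examined in mouse ureteric tip cells, on arrays that each measured the sorted cells of 1 ureteric bud. The members were 10 genes picked by symbol: Pax2, Pax8, Gata2 and Gata3, which work in the nephric duct and its bud, and their paralogues Pax3, Pax5, Pax6, Gata4, Gata5 and Gata6, best known from other tissues. They are 10 of the 19938 genes that had a probe set with a single gene symbol, and each of the 10 had exactly 1 such probe set. The other genes of both families with such a probe set, Pax1, Pax4, Pax7, Pax9 and Gata1, are given beside them. The 3 samples form 1 group, ureteric tip cells of CD-1 embryos carrying the transgene Tg(Hoxb7-EGFP)33Cos, at 10.5 days post coitum (Theiler stage 18), sex unknown. All 3 carry the transgene, whose fluorescence in duct and bud cells was the basis of the sort, and none was pooled. With 1 group and no untreated or other tissue beside it, the question open to the data is which members gave a signal above background and how far the buds differed in it.

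Pax proteins bind DNA through the paired domain, and Gata proteins through zinc fingers that recognise the letters their name comes from. In the mouse embryo Pax2 and Pax8 act together to specify the nephric lineage, and Gata3 acts downstream of them in the duct, where it is needed for duct guidance and for expression of the GDNF receptor gene Ret. Gata2 is expressed in the urogenital tract and is also a regulator of blood progenitors and endothelium. Of the paralogues, Pax3 works in neural crest and muscle precursors, Pax5 in B cells and at the midbrain-hindbrain boundary, and Pax6 in eye, brain and pancreas. Gata4, Gata5 and Gata6 work in heart and endoderm, and Gata4 also in the gonad.

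Because GATA factors are themselves members, the 250 bases before the listed transcription starts were searched for the letters GATAA on either strand (read as GATAA or TTATC) in RefSeq sequence of build GRCm38.p6. Of the 10 members, 7 had such a window, and Pax3, Gata4 and Gata6 had none in the table used. A match was present in 1 of 7 windows of the duct genes (3 of Pax2, 2 of Gata2, 1 each of Pax8 and Gata3) and in 1 of 4 windows of the paralogues (the second of 2 for Pax6), against 22.6% of all 32851 windows. With the longer letters AGATAA or TGATAA, which contain the shorter ones, the counts were 0 of 7 and 1 of 4, against 16.6% of all windows. The windows of Pax8 and Gata3 are printed because Pax8 holds the single match among the duct genes and Gata3 had the duct gene signal farthest above background. Each reads 5′ to 3′ on the strand of the gene, ends at the base before the listed start, and has any GATAA match in capitals. The Pax8 window is chr2:24475600-24475849 (minus strand) and the Gata3 window chr2:9878601-9878850 (minus strand).
Pax8: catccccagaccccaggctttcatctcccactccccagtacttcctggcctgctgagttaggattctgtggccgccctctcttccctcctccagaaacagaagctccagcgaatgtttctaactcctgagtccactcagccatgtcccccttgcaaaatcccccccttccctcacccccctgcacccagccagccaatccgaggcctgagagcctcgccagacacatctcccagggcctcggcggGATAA
Gata3: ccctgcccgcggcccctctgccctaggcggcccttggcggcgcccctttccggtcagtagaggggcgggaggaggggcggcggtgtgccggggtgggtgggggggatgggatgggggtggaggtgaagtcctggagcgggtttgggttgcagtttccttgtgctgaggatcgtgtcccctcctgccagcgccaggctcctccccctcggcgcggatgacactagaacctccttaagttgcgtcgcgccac
The Pax8 match lies in the last bases of its window, and GC made up 60.4% of that window and 70.0% of the Gata3 window, with a median of 52.4% over all windows. These are descriptions of the letters and not of binding.

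Signals are log2 values per probe set as deposited. Background was read from 1035 probe sets of olfactory receptors, which are taken to be silent in a bud: each array's level was their 95th percentile there, at 5.40, 5.45 and 5.41 log2 on arrays 1, 2 and 3. By construction 5% of the olfactory probe sets lie above it. A gene was called above background when its mean distance from that level passed a one-sided limma test at a Benjamini-Hochberg adjusted p under 0.05 over all genes. This held for 10567 of 19938 genes (53%). Many deposited values were the same on several arrays: 51.7% of all genes had 1 value on all 3 arrays, 28.7% had the same value on exactly 2, and 19.6% had 3 different values. Among the 10 members these numbers were 6, 1 and 3. An identical value carries no measured spread between buds, so for those genes the p-value rests on the 3 background levels and the model's prior. Some values also recurred between genes, as with Gata5 and 1600014C10Rik, both at 5.812 log2 on all 3 arrays. How many genes shared a value with another gene was not counted. The labels name each sample a single bud but do not say whether the buds came from different embryos or litters.

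All 4 duct genes lay above background, as did 2 of the 6 paralogues, Gata4 and Gata5, beside 53% of all genes. The median distance from background was 1.85 log2 for the duct genes and -0.44 log2 for the paralogues, with 0.22 log2 over all genes. Probes of different genes bind with different strength, and 4 of the 6 paralogues were not above background, so these medians give no ratio of RNA levels between the lists. These counts describe lists of 4 and 6 genes chosen by name, and the difference between the lists was not tested.

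**Figure D1:**
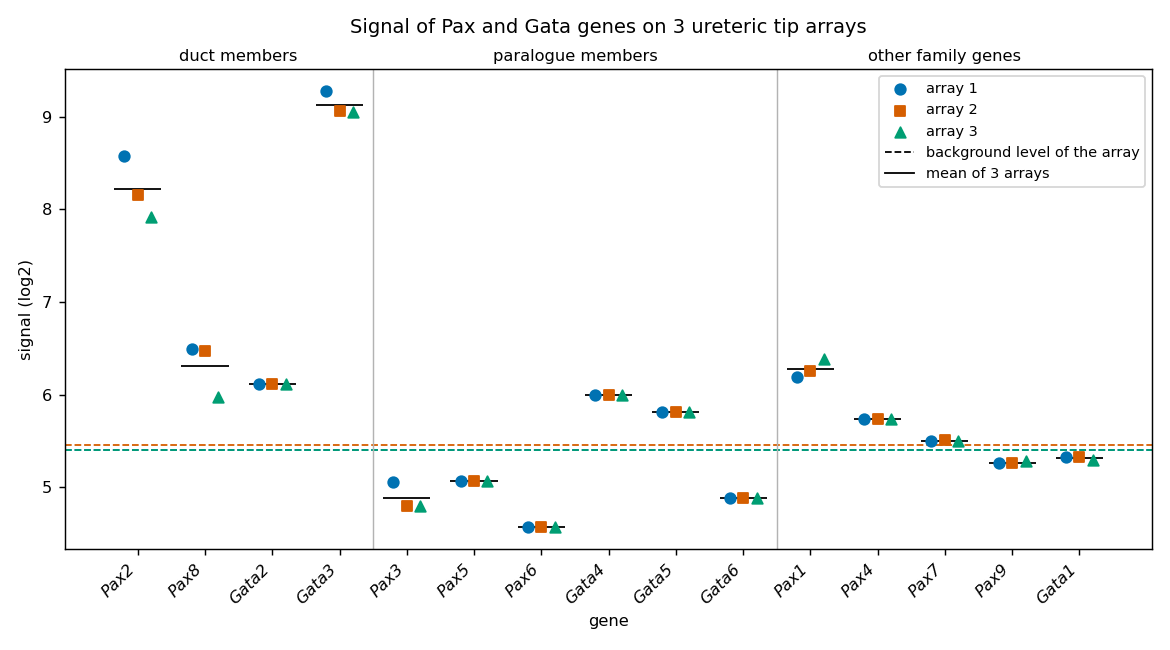
Signal (log2, vertical axis) of the 10 members and 5 other family genes on each of the 3 arrays, with the mean as a black line and each array's background level as a dashed line in the array's colour. Pax2 and Gata3 sit far above the dashed lines on every array, Pax8, Gata2, Gata4 and Gata5 between 0.39 and 0.89 log2 above them on average, and Pax3, Pax5, Pax6 and Gata6 below them.

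Gata3 had a signal of 9.27, 9.06 and 9.05 log2 on arrays 1, 2 and 3, a mean of 9.13 ± 0.13 (SD, n = 3). All 3 arrays lay above every olfactory receptor probe set. The distance from background was 3.71 ± 0.06 log2 (moderated SE; limma, adjusted p = 4.71e-06), and the gene stood at the 94.3rd to 95th percentile of all genes on the 3 arrays. Array 1 was the highest by 0.22 log2, and arrays 2 and 3 were within 0.01 log2 of each other. That SD was ordinary, at percentile 48 among the 673 called genes with differing values and a mean within 0.5 log2 of Gata3's.

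Pax2 had a signal of 8.58, 8.15 and 7.92 log2 on arrays 1, 2 and 3, a mean of 8.22 ± 0.33 (SD, n = 3). Array 3, the nearest to its background level, was 2.52 log2 above it, and the mean distance was 2.80 ± 0.15 log2 (moderated SE; limma, adjusted p = 0.000112). The buds spanned 0.66 log2, with array 1 high and array 3 low. This SD lay at percentile 82.9 among the 1069 called, non-identical genes of similar level, whose median SD was 0.15 log2. Each array holds the RNA of many cells, so fewer expressing cells and less RNA per cell cannot be told apart.

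Pax8 had a signal of 6.49, 6.47 and 5.97 log2 on arrays 1, 2 and 3, a mean of 6.31 ± 0.29 (SD, n = 3). Arrays 1 and 2 differed by 0.02 log2, and array 3 was the low one, yet still 0.56 log2 above its background level. The mean distance was 0.89 ± 0.12 log2 (moderated SE; limma, adjusted p = 0.00266). The SD was at percentile 84.3 among 1932 genes of similar level. Without array 2 the call was lost (0.83 log2, limma, adjusted p = 0.0506). At the 99th percentile of olfactory receptors, where 35.3% of all genes were called, it was lost too (0.25 log2, limma, adjusted p = 0.115).

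Gata2 had 6.11 log2 on all 3 arrays, 0.69 ± 0.02 log2 above background (moderated SE; limma, adjusted p = 2.82e-05). Between 99% and 99.1% of olfactory receptor probe sets lay at or below it. At the 99th percentile of olfactory receptors it stood 0.05 log2 above the level and was not called (limma, adjusted p = 0.39). Since Gata2 also works in vessels and blood, markers of those cells were set beside it. Of 14 endothelial markers 11 were above background (78.6%, beside 53% of all genes), and their summed signal was 10.77, 10.09 and 11.20 log2 on arrays 1, 2 and 3, lowest on array 2. The defining endothelial gene Cdh5, a vascular cadherin, had 8.22, 5.90 and 8.07 log2, a range of 2.32 log2. Only 2 of the 14 endothelial markers were identical on all 3 arrays like Gata2. These were Sox18 at 5.90 and Fli1 at 8.13 log2, named after their values were seen. Of 15 erythroid and blood progenitor genes 11 were above background (73.3%) and 9 were identical on all 3 arrays, with summed signals of 10.69, 9.95 and 10.49 log2. The 4 not called were Hbb-y, Hbb-bh1, Klf1 and the leukocyte gene Ptprc, the last at 4.48 log2 on all 3 arrays. The globin gene Hbb-y had 8.86, 5.48 and 8.52 log2 on arrays 1, 2 and 3. Its mean distance, 2.20 log2, did not pass (limma, adjusted p = 0.053). Hbb-bh1 and the called globin gene Hba-x were also lowest on array 2. No adjustment for these cells was made, and their part in the level of Gata2 was not tested.

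The 2 called paralogues were Gata4, at 5.99 log2, and Gata5, at 5.81 log2, each identical on all 3 arrays. Gata4 was 0.57 ± 0.02 log2 above background (moderated SE; limma, adjusted p = 5.02e-05) and Gata5 0.39 ± 0.02 log2 (limma, adjusted p = 0.000163). Between 98.7% and 98.8% of olfactory receptor probe sets lay at or below Gata4, and between 97.5% and 98.0% at or below Gata5. Both lay below the level at the 99th percentile of olfactory receptors, by 0.07 and 0.25 log2, and lost their calls (limma, adjusted p = 1 for both). The antisense gene Gata5os, named here after its value was seen, has its own probe set and was at 5.23 log2 on all 3 arrays, not above background.

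Markers of the tissues in which Gata4, Gata5 and Gata6 are best known were above background in shares of 20% to 60%, beside 53% of all genes. The gonadal ridge list gave 2 of 10, Cbx2 and Sox9, of which Sox9 is also a ureteric tip gene, while the defining gonadal genes Nr5a1 (5.40 log2) and Lhx9 (4.80 log2) were not called. Gut endoderm gave 4 of 10 (Hnf4a, Cdx1, Hhex and Shh), without Foxa2, Foxa3 or Cdx2. In that list 6 of 10 genes were identical on all 3 arrays. Hhex had the widest range, 2.09 log2, with 6.90, 6.14 and 8.22 log2 on arrays 1, 2 and 3. Heart and lateral mesoderm gave 6 of 10, including Nkx2-5 at 6.38 log2, without Tbx5 (4.20 log2) or the cardiac myosin genes Myh6 and Myl7. The summed signals of these 3 lists ran over the arrays from 9.32 to 9.44, from 8.73 to 9.35 and from 9.03 to 9.16 log2, beside single values of Gata4 and Gata5, and their part in those values was not tested.

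Pax3, Pax5, Pax6 and Gata6 were not above background (limma, adjusted p = 1 for each). Pax3 had 5.06, 4.80 and 4.80 log2 on arrays 1, 2 and 3, the last 2 identical, and was 0.34 log2 or more below the level on every array. Pax5 was at 5.07 log2, Pax6 at 4.57 and Gata6 at 4.89 log2, each identical on all 3 arrays. Their mean distances from background were -0.53 for Pax3, -0.35 for Pax5, -0.85 for Pax6 and -0.53 log2 for Gata6. Pax6 was the farthest below, with 79.1% to 80.6% of olfactory receptor probe sets at or below it. The group of 4 was not uniform under lower levels: with the 90th percentile of olfactory receptors, which called 63.7% of all genes, Pax5 was called at 0.04 log2 above the level (limma, adjusted p = 0.0144).

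Of the tissues of these Pax genes, neural tube, neural crest and somite markers were above background in 5 of 12 members (Sox10, Sox1, Myod1, Tcf15 and Met), beside 53% of all genes, without Olig2 or Neurog2. The neuronal tubulin gene Tubb3, named after its values were seen, was not called (limma, adjusted p = 0.0608). It had 7.86, 5.93 and 6.09 log2 on arrays 1, 2 and 3, highest on array 1 as Pax3 was. The summed signal of the list, with Tubb3 in it, was 9.90, 9.49 and 9.74 log2 on arrays 1, 2 and 3. Of its 12 markers 8 were identical on all 3 arrays and carry no pattern. The part of Tubb3 in the value of Pax3 was not tested. Markers of the midbrain-hindbrain boundary and B cells were above in 4 of 9 (En1, En2, Fgf8 and Cd79b), without Wnt1, Cd79a, Ebf1, Blnk and Vpreb1. Of these, the B cell precursor gene Vpreb1 had 5.33, 7.22 and 8.11 log2 on arrays 1, 2 and 3, high on the last 2. The mean distance of Vpreb1, 1.47 log2, did not pass (limma, adjusted p = 0.0698), and its part in the level of Pax5, which had 1 value on these arrays, was not tested. In the remaining family genes 3 of 5 were above background, beside 53% of all genes. Pax1, a factor of the sclerotome and pharyngeal pouches, had 6.20, 6.25 and 6.38 log2 on arrays 1, 2 and 3, a mean distance of 0.86 ± 0.05 log2 (moderated SE; limma, adjusted p = 0.000131). Pax1 thus passed, with array 3 high, and it remained called at the 99th percentile of olfactory receptors (0.21 log2). Pax4, a pancreatic islet factor, was at 5.74 log2 on all 3 arrays and called, and Pax7, a factor of muscle precursors and neural tube, was called at only 0.08 log2 above background (limma, adjusted p = 0.0178). Pax9 (5.27 ± 0.02 log2) and the erythroid factor Gata1 (5.32 ± 0.01 log2, both SD, n = 3) were not above background.

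**Figure D2:**
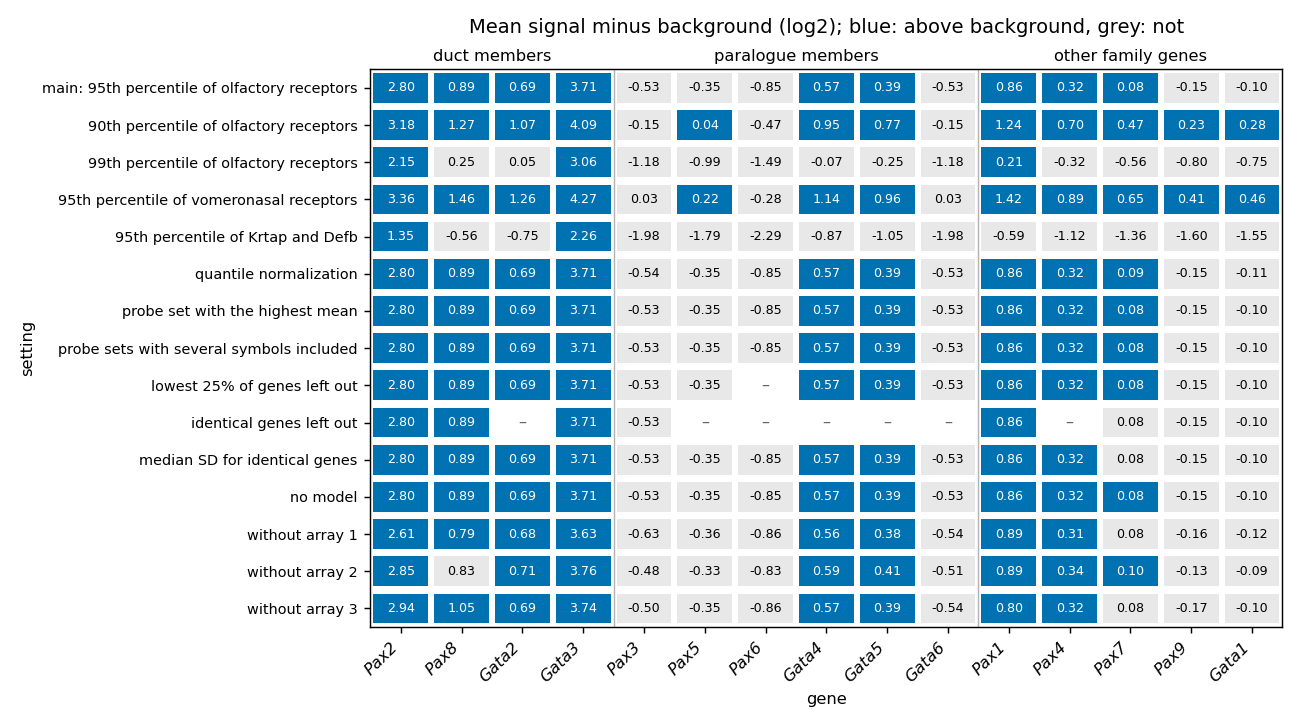
Mean signal minus background (log2, printed in each cell) of the 10 members and 5 other family genes, in columns, under the main setting and 14 others, in rows; blue cells were above background, grey cells were not, and a dash marks a gene absent from that fit. Pax2 and Gata3 are blue in every row, and Pax3, Pax6 and Gata6 in none.

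Pax2 and Gata3 were above background in all 14 other settings, with distances from 1.35 to 3.36 log2 and from 2.26 to 4.27 log2. With the level set by keratin-associated protein and beta-defensin genes, where 21.1% of all genes were called, these 2 were the only ones of the 15 family genes above it. Pax8 was called in 11 of 14 settings, and Gata2 in 11 of the 13 that included it. Gata4 and Gata5 were each also called in 11 of 13, so the settings did not separate them from Gata2. Of all genes tested, vomeronasal receptors as background called 65.1%, the fit without the lowest 25% of genes 71%, that without identical genes 63.1%, that with a median SD for identical genes 51.1%, and the rule without a model, above the level on every array, 54%. Quantile normalization called 52.8%, the probe set with the highest mean 53.4%, probe sets with several symbols 52.5%, and the fits without array 1, 2 or 3 called 48.5%, 52.8% and 48.8%.

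Genes that act with or downstream of the duct factors were above background in 25 of 27 measured members of the duct network list, beside 53% of all genes, at a median distance of 1.81 log2. Calb1, a calcium-binding protein that marks this epithelium, was at 11.47 ± 0.07 log2 (SD, n = 3), and Hoxb7 was at 7.01 ± 0.15 log2, both above background. Both were named with their values known, and the sort used a transgene driven by Hoxb7 sequence. They are therefore no independent check of the tissue. Lhx1, a LIM homeobox factor of the duct, had 7.76, 6.97 and 6.79 log2 on arrays 1, 2 and 3, high on array 1. Ret, which depends on Gata3 in the mouse duct, had 8.69, 8.35 and 8.18 log2, again with array 1 high. Emx2 (7.51 ± 0.06 log2) and Mecom (7.65 ± 0.18 log2, both SD, n = 3), both transcription factor genes, were above background as well. The 2 not called were the forkhead genes Foxc1 and Foxc2, which are mainly mesenchymal. Pax2 is also a gene of the metanephric mesenchyme, and that list gave 4 of 13 (Cited1, Wt1, Uncx and Six4), without Six2, Gdnf, Eya1 and Osr1. Its summed signal was 9.10, 9.12 and 9.06 log2 on arrays 1, 2 and 3. Of those 13 genes 9 were identical on all 3 arrays and 9 were not above background, so the sum had little room to move, and the part of mesenchyme in the values of Pax2 was not tested.

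Cofactors of Pax and Gata proteins were above background in 20 of 22 members, beside 53% of all genes, at a median distance of 1.97 log2. Paxip1 and Pagr1a, which link Pax2 to histone H3 methyltransferase complexes, had 7.34 ± 0.09 and 8.97 ± 0.36 log2 (SD, n = 3). Of the FOG proteins that bind Gata zinc fingers, Zfpm1 was called at 6.15 log2, identical on all 3 arrays, and Zfpm2, the partner of Gata4 in heart and gonad, was not (4.41 ± 0.01 log2). The corepressor Tle2, at 5.47 log2 on all 3 arrays, was the other one not called (limma, adjusted p = 0.0893). Lmo2, an adaptor of Gata factors in blood and endothelium that is named after its values were seen, had 7.41, 6.75 and 8.19 log2 on arrays 1, 2 and 3. Array 2 was its lowest and array 3 its highest, the order of the summed endothelial signal on the same arrays. Pagr1a, with 9.09, 8.57 and 9.26 log2 on arrays 1, 2 and 3, had that order too. The part of endothelial cells in the values of Lmo2 or Pagr1a was not tested.

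**Figure D3:**
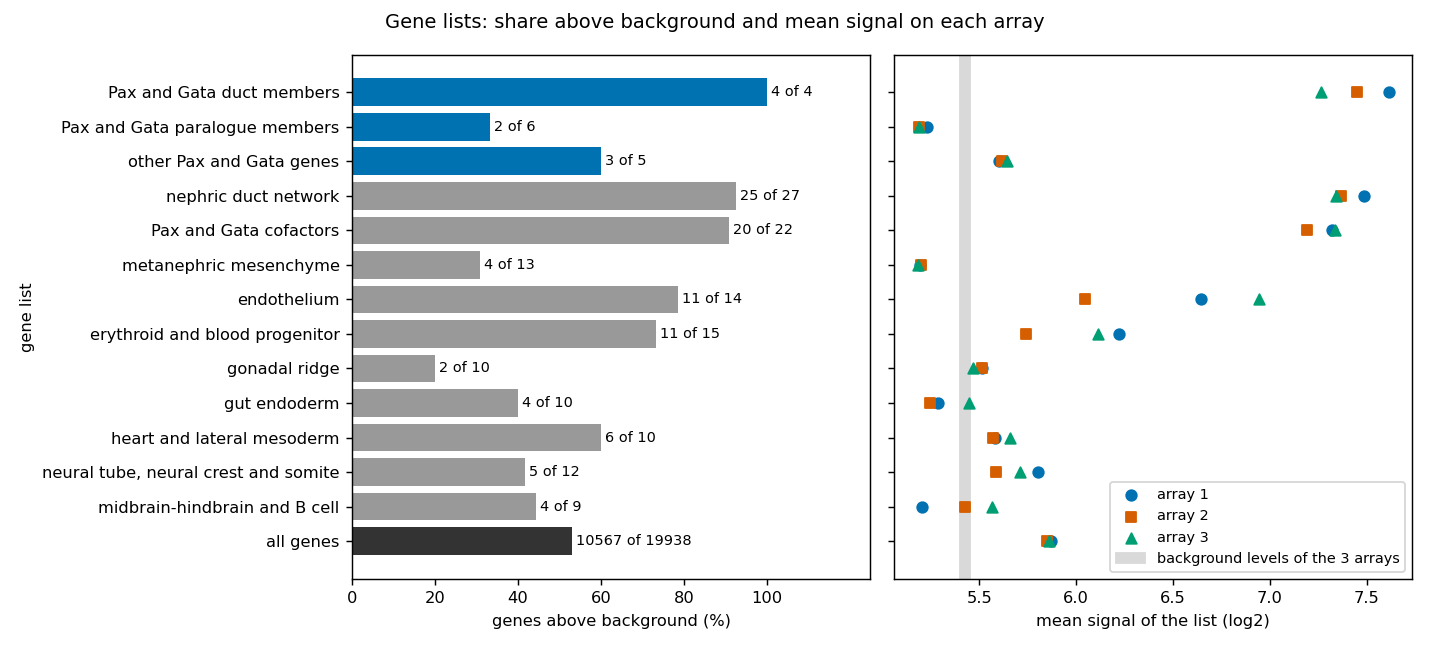
Left, the share of measured genes above background (%) in each gene list, with counts; right, the mean signal (log2) of each list on arrays 1, 2 and 3, with the background levels as a grey band. The duct genes (4 of 4), the duct network (25 of 27), the cofactors (20 of 22), endothelium (11 of 14), blood (11 of 15), heart (6 of 10) and the other family genes (3 of 5) lie above the 53% of all genes. On the right, the endothelial, blood, cofactor, neural, gut and heart lists have their lowest mean on array 2, as have all genes, with the widest ranges in the endothelial and blood lists.

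Pax2, Pax8 and Gata3 were the duct genes whose values differed between buds, and all 3 were highest on array 1. This position was the most common one in the data, since 46.8% of the 2908 called genes with 3 different values were highest on array 1, against 24% on array 2 and 29.2% on array 3. The likeness of a network or cofactor gene to a member was taken as the root mean square difference between their deviations from their own means over the 3 arrays, among 33 called and non-identical genes. Pax2 was nearest to Gfra1, the GDNF co-receptor gene (0.05 log2), then Ret (0.06) and the histone methyltransferase subunit Rbbp5 (0.07 log2). Gfra1 had 8.58, 8.22 and 7.85 log2 on arrays 1, 2 and 3, with the same high and low arrays as Pax2. Gata3 was nearest to Hoxb7 (0.02 log2), whose regulatory sequence drives the transgene, then to the epithelial cadherin Cdh1 (0.03) and the RET target Etv5 (0.04 log2). Pax8 was nearest to Wfdc2, a secreted epithelial protein (0.09 log2), then Rbbp5 (0.11) and Sim1 (0.12 log2). With 3 arrays and 33 candidates, close matches occur easily, and these are descriptions with no test.

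**Figure D4:**
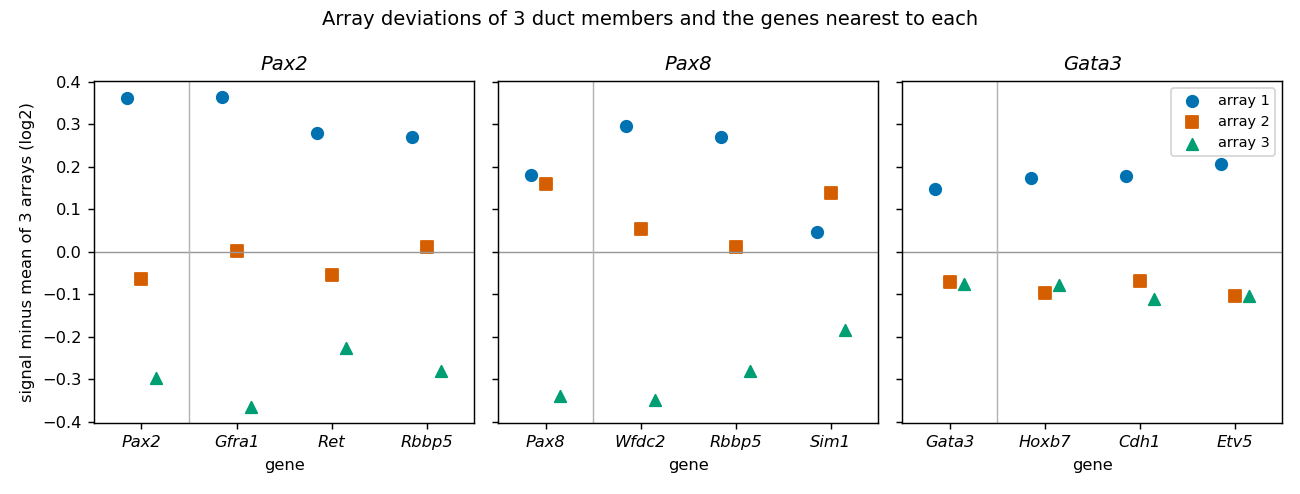
Signal minus the gene's own mean over 3 arrays (log2, vertical axis) for Pax2, Pax8 and Gata3, each left of the 3 network or cofactor genes nearest to it; colours and shapes mark arrays 1, 2 and 3. Array 3 is low for Pax2, Pax8 and their neighbours, whereas for Gata3 and its neighbours arrays 2 and 3 lie together below array 1.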

How the data were processed

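Affymetrix arrays measured RNA from 3 samples of sorted ureteric tip cells, amplified in 1 round and labelled with biotin, per the labels. The values deposited by the authors are on a log2 scale, a base inferred from their range. Per the submitters' processing notes, Affymetrix Expression Console was used; version, background correction, normalization, probe summary: not given in the sources used here. Columns were used as deposited. Of 35557 probe sets, 21789 had 1 gene symbol in the platform annotation, 1621 had several and 12147 had none listed; the last 2 kinds were left out. Probe sets of 1 gene were averaged. Identical means within 1e-06 log2.

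Each gene's value minus its array's background level was fitted with limma 3.58.1 (R 4.3.3), with moderated one-sided tests and Benjamini-Hochberg adjustment over 19938 genes, and tested on simulated data. The prior SD was 0.05 log2 on 1.71 degrees of freedom. Precision is limited by the number of arrays. Summed signals are the log2 of summed powers of 2. Alternatives changed the background set or percentile, normalization, probe set rule, filter, treatment of identical genes, test and arrays. Of 161 listed genes 157 were measured; the others are not analysed here. Genes named were the family, the first 4 measured genes of each list, and those of a list where 5 or fewer were called or not called; not all are printed. Calb1, Hoxb7, Lmo2, Sox18, Fli1, Tubb3, Gata5os and 1600014C10Rik were named outside this rule, with their values known. The genes nearest to Pax2, Pax8 or Gata3 were named by the closeness of their values. Members and lists were chosen with earlier results of these data known.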

Additional observations from a re-analysis of the deposited data

How the results depend on the processing

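All 4 duct genes and 2 paralogues (Gata4, Gata5) were called under the 8 of 14 alternatives that did not change the background level or leave out identical genes or array 2. At the 99th percentile of olfactory receptors the counts were 7034 genes, 2 duct genes (Pax2, Gata3) and 0 paralogues; with keratin-associated proteins and beta-defensins they were 4210, 2 and 0. There Pax8, Gata2, Gata4, Gata5, Pax1, Pax4 and Pax7 lay at -0.56, -0.75, -0.87, -1.05, -0.59, -1.12 and -1.36 log2, and at the 99th percentile Gata4, Gata5, Pax4 and Pax7 at -0.072, -0.25, -0.32 and -0.56 log2. At the 90th percentile Pax5, Pax9 and Gata1 lay above the level by 0.036, 0.23 and 0.28 log2, and with vomeronasal receptors Pax3, Pax5, Gata6, Pax9 and Gata1 by 0.030, 0.22, 0.034, 0.41 and 0.46 log2, Pax3 and Gata6 without a call. Both lower levels gave 3 paralogues. With identical genes left out, 6078 of 9627 genes, 3 of 3 duct genes and 0 of 1 paralogue were called, since fewer genes were tested. Without 1 array the counts were 9666 to 10526 genes, 3 to 4 duct genes (Pax8 lost without array 2) and 2 paralogues. The fits without array 1 or array 3, and the fit with vomeronasal receptors, used a pooled SD. Pax7 lost its call in 6 of 14 alternatives. The levels themselves, 4.85 to 6.87 log2 on average between background sets, limit what can be said of genes near them. No paired analysis was possible because there is 1 group.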
